A study of Mus musculus with 6 samples.

Results

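The unfolded protein response and the amino acid stress response were described through 32 genes, chosen by a fixed list of gene symbols. Each gene was represented by a probe set annotated to that gene alone, and by the one with the highest mean over the 6 arrays where a gene had several. All 32 genes had such a probe set, among 19936 genes measured. The cells were 3 mouse endothelial lines grown from embryonic stem cells and labelled by the cadherin they express: line N with N-cadherin, line VE with VE-cadherin and line VE+N with both. How each line was given its cadherin is not stated in the sources used here. All lines were grown in the same way, with 50000 cells seeded per square centimetre, 72 h of culture that kept them confluent, and a starvation of 18 to 20 h, in a medium that held 1% albumin, before RNA was taken. Starvation was therefore shared by all 3 groups, and no group of unstarved cells was measured. A serum content of 20% was also listed for all samples. Starvation is not meant here as a lack of amino acids, which was not described for any group. Each line had 2 arrays from separate RNA extractions, which the titles call biological replicates. Whether the extractions came from separate cultures is not given, so p-values measure the spread between these extracts only. There was 1 line for each cadherin state, so the cadherin and the line cannot be told apart.

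Proteins that enter the endoplasmic reticulum (ER) are folded there by chaperones and by enzymes that form disulphide bonds. When unfolded proteins build up, the sensors IRE1, PERK and ATF6 start the unfolded protein response: IRE1 (Ern1) splices Xbp1 mRNA into the form that encodes an active transcription factor, ATF6 is cut to release another, and both raise chaperone and degradation genes. PERK phosphorylates the translation factor eIF2α, as does GCN2 in cells short of amino acids, and the translation of Atf4 that follows raises genes for amino acid synthesis and uptake. Endothelial cells secrete matrix and von Willebrand factor through the ER, and proliferating endothelial cells draw on serine synthesis. Arrays measure the amount of each mRNA, so the splicing of Xbp1, the cutting of ATF6 and the translation of Atf4 were not seen in these values.

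All 15 endothelial markers fixed for a check of the label were measured, and 14 of them in line N and 15 in lines VE and VE+N had a signal above that of the median gene. This is a rough mark of detection only, since probe sets differ in how strongly they respond. The summed linear signal of the markers was 27040 to 27250 in N, 24210 to 24490 in VE and 30830 to 33970 in VE+N. Cdh2, which encodes N-cadherin, had mean log2 signals of 7.67 in N, 5.86 in VE and 6.69 in VE+N. Cdh5, which encodes VE-cadherin, lay at 7.28, 6.94 and 7.10 and was not called in any comparison (adjusted p from 0.0917 to 0.462), so its values did not follow the labels. Apart from such marks and sums over marker lists, each gene is compared with itself between lines and not with other genes. Both arrays of a line differed with an SD over all genes of 0.185 in N, 0.196 in VE and 0.244 in VE+N. In line VE+N replicate 2 was higher than replicate 1 for 26 of the 32 genes. The median of this difference was 0.13 on the log2 scale, against −0.00228 over all genes. Most of these genes therefore differed together between the arrays of that line.

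The promoters of these genes are shown first, to locate the sequence elements through which both responses are known to act. RefSeq promoters of GRCm38.p6, from 250 bases before to 50 after the start of each gene, were found for 29 of the 32 genes (not for Atf6, Hyou1 and Manf). The ER stress response element (ERSE), bound by NF-Y and ATF6, was searched on both strands as CCAAT and CCACG with any 9 bases between them. It was held by 39 of 32851 promoters (0.119%) and by 7 of the 29: Calr, Creld2, Dnajc3, Hsp90b1, Hspa5, Pdia6 and Syvn1. All of these except Syvn1 are chaperone or folding genes. Each stretch below is read along the gene's strand and runs 10 bases past the match on either side, with the match in capitals.
Hspa5 (chr2:34772015-34772053, + strand): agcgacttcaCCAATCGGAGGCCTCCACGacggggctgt
Pdia6 (chr12:17266481-17266519, + strand): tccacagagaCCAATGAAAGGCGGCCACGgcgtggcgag
Calr (chr8:84847065-84847103, − strand): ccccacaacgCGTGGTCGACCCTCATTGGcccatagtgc
Creld2 (chr15:88819510-88819548, + strand): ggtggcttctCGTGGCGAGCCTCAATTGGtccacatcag
Dnajc3 (chr14:118937817-118937855, + strand): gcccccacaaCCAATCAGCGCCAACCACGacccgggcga
Syvn1 (chr19:6046522-6046560, + strand): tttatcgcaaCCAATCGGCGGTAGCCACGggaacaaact
Hsp90b1, first match (chr10:86705628-86705666, − strand): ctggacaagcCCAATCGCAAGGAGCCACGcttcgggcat
Hsp90b1, second match (chr10:86705523-86705561, − strand): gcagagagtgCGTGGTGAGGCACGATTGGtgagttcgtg
In Calr, Creld2 and the second match of Hsp90b1 the element lay on the opposite strand, and so the capitals begin with CGTGG.

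The same promoters were searched for the element bound by ATF4 with a C/EBP partner (CARE), spelled TGATGNAA on both strands. It was held by 1304 of the 32851 promoters (3.97%) and by 6 of the 29: Asns, Chac1, Herpud1, Nupr1, Slc7a11 and Trib3. Slc7a11 held 2 matches that overlap in the stretches printed, and Herpud1 was the gene that also held ERSE-II (ATTGG and CCACG with 1 base between them), found in 12 promoters (0.0365%).
Slc7a11, first match (chr3:50443662-50443689, − strand): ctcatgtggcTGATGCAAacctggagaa
Slc7a11, second match (chr3:50443643-50443670, − strand): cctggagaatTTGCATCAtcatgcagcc
Chac1 (chr2:119351039-119351066, + strand): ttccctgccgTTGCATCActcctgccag
Asns (chr6:7693215-7693242, − strand): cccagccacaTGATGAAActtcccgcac
Trib3 (chr2:152344029-152344056, − strand): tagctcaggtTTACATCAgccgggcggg
Nupr1 (chr7:126625563-126625590, − strand): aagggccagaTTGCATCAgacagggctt
Herpud1, CARE (chr8:94386307-94386334, + strand): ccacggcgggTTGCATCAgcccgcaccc
Herpud1, ERSE-II (chr8:94386367-94386397, + strand): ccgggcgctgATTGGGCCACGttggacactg
The element of XBP1 (UPRE, TGACGTGG; 222 promoters, 0.676%) and the cyclic AMP element (CRE, TGACGTCA; 588 promoters, 1.79%) were found in 0 of the 29 promoters. The antioxidant element (ARE, TGACNNNGC; 4071 promoters, 12.4%) was found in 9: Asns, Calr, Ern1, Herpud1, Pdia3, Phgdh, Psph, Sdf2l1 and Sesn2. A match is a description of the letters in this window, and no match says only that those letters are not in it.

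Both whole promoters that follow show how the elements sit before the start of a chaperone gene and of an amino acid gene, in the 300 bases read along the gene's strand with the matches in capitals. In Hspa5 the match to the ERSE letters lies before the start, while in Slc7a11 both CARE matches lie close together. Looser copies of either element were not searched for and are not marked.
Hspa5 promoter (chr2:34771840-34772139, + strand): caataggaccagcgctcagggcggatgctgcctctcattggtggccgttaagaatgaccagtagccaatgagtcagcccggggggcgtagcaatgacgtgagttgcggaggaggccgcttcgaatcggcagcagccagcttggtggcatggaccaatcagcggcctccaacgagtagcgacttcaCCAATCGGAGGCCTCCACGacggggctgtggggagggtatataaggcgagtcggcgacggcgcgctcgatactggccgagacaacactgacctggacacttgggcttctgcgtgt
Slc7a11 promoter (chr3:50443564-50443863, − strand): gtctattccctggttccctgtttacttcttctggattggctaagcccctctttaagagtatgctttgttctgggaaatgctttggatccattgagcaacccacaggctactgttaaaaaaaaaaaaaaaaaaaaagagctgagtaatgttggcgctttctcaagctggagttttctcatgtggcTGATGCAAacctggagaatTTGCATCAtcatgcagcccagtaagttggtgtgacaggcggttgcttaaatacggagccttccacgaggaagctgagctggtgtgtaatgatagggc

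**Figure D1:**
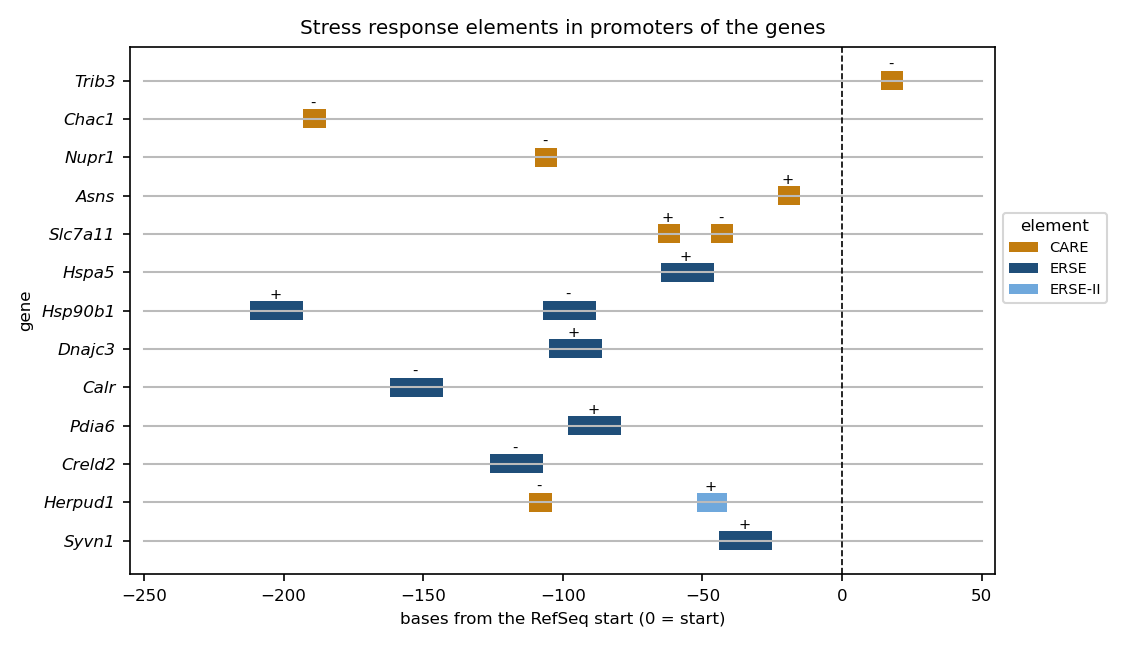
Positions of the element matches in the promoters of the members, as distance in bases from the gene start on the x axis, with 1 line for each gene, 1 colour for each element and the strand of the match above its bar. ERSE matches are seen in 7 genes and CARE matches in 6, with Herpud1 in the second set and not in the first.

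Between the lines the 32 genes fell into blocks with different patterns. Most ER chaperones were highest in N and lowest in VE+N, most genes of serine, one-carbon and amino acid supply were highest in VE, and 5 genes (Sesn2, Nupr1, Atf6, Dnajb9 and Herpud1) had their highest mean in VE+N. Differences are given on the log2 scale ± SE from limma's fit of all 6 arrays, and a gene is said to rise or fall where its p, adjusted by Benjamini-Hochberg over all 19936 genes, was below 0.05. In VE against N 13 of the 32 genes were called, 5 higher and 8 lower (40.6%; of all genes tested 15.4% were called, 8.46% higher and 6.99% lower), and the median difference was −0.12, against −0.02 over all genes. Between VE+N and N 15 were called, 3 higher and 12 lower (46.9%; of all genes 19.1%, 10.2% higher and 8.91% lower), with a median of −0.18, against −0.00443 over all genes. Between VE+N and VE 10 were called, 2 higher and 8 lower (31.2%; of all genes 10.1%, 4.29% higher and 5.84% lower), with a median of −0.26, against 0.03 over all genes. The first pair of comparisons shares the N arrays, and the last shares arrays with both. Leaving out 1 array gave counts of 6 to 15, 12 to 16 and 2 to 8, and the methods' analysis of variance with Benjamini-Hochberg adjustment called 4, 8 and 2. Median centring of the arrays moved the median of all genes by −0.108 in VE against N and by 0.0879 in VE+N against VE, and then 4 of the 32 genes were called higher and 12 lower in the first and 3 and 5 in the second.

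The mean of line VE+N was the lowest for 19 of the 32 genes, against 31.8% of all genes, and the highest for 5, against 36.9%. Line N was highest for 17 genes (38.4% of all genes) and line VE for 10 (24.7%). The order N above VE above VE+N was seen in 13 genes, and its share over all genes was not counted. In all, 21 genes were called in at least 1 comparison and 11 in none, against 74.4% of all genes called in none. Sesn2 and Sdf2l1 were called in all 3, against 2.92% of all genes. The 11 genes not called were Ddit3, Trib3, Nupr1, Asns, Psph, Atf6, Ern1, Hsp90b1, Dnajc3, Pdia3 and Syvn1. Changes were small. In VE+N against N 4 of the 32 genes (Sesn2, Hspa5, Sdf2l1 and Pdia6) were called over 2-fold, against 4.6% of all genes. In VE against N and in VE+N against VE 0 of the 32 passed both limits, against 3.81% and 2.52% of all genes. Of the genes called there, 0 of 13 and 0 of 10 members were over 2-fold, beside 760 of 3079 and 502 of 2020 among all genes. The methods' analysis of variance with the same fold also gave 0 members in these comparisons, with 20 and 16 at unadjusted p under 0.05. Since RNA was taken from whole cultures, fewer cells expressing a gene and less of its RNA per cell cannot be told apart.

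**Figure D2:**
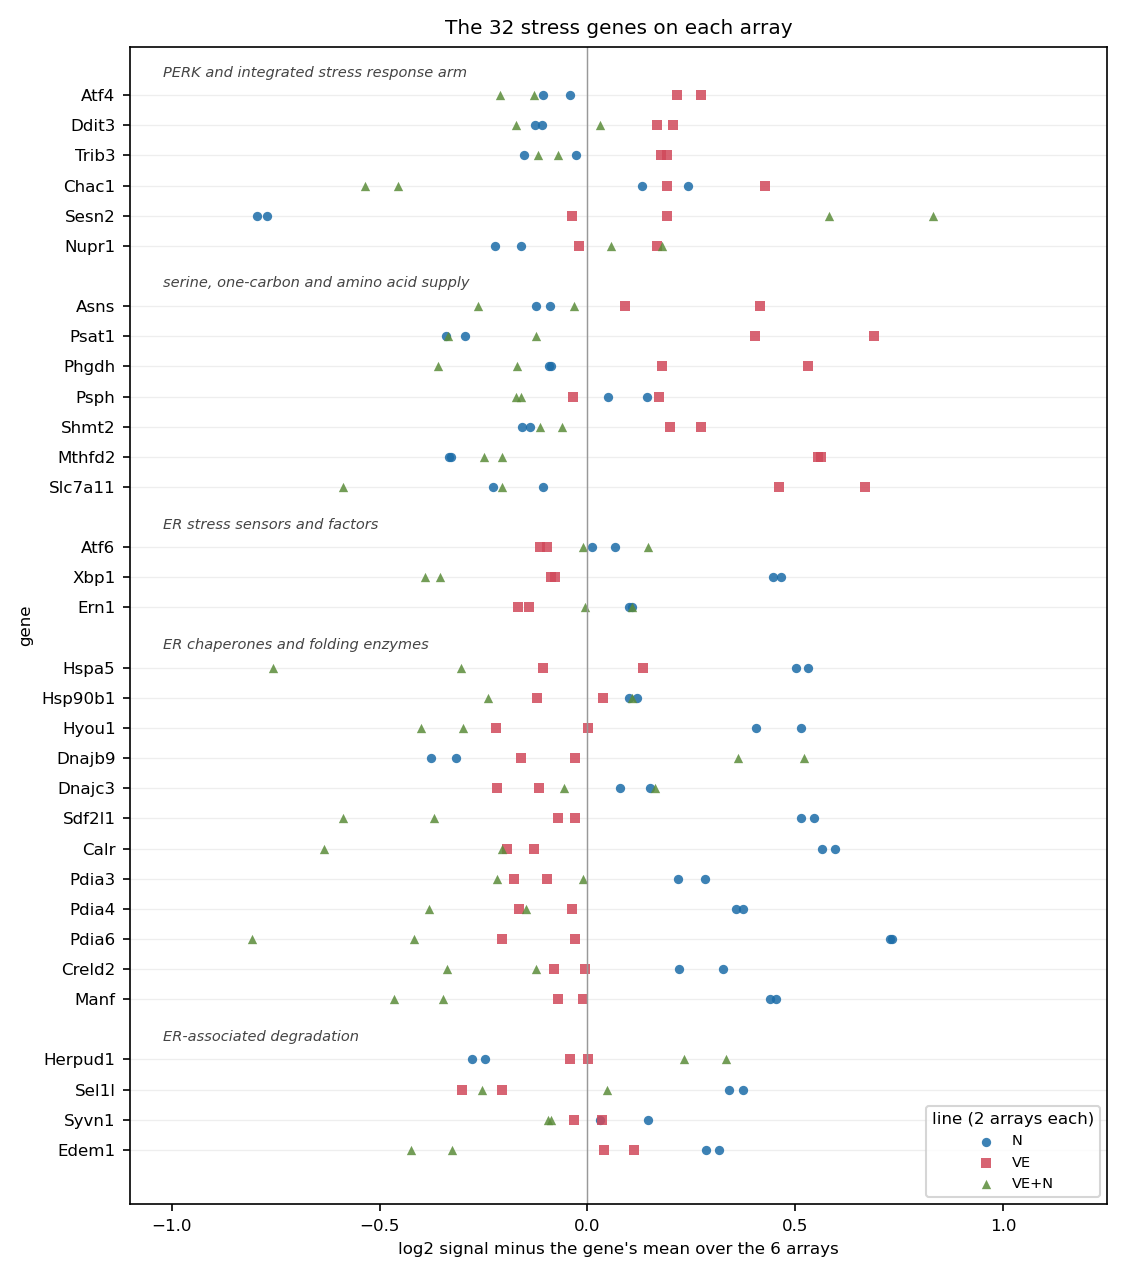
Log2 signal of the 32 genes on each of the 6 arrays, shown as the difference from the gene's mean over all arrays, with genes ordered by role. Most chaperones (Hspa5 and Pdia6, but not Dnajb9) are high on the N arrays and low on the VE+N arrays, all genes of amino acid supply except Psph are highest on the VE arrays, and Sesn2, Dnajb9 and Herpud1 are high on the VE+N arrays.

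**Figure D3:**
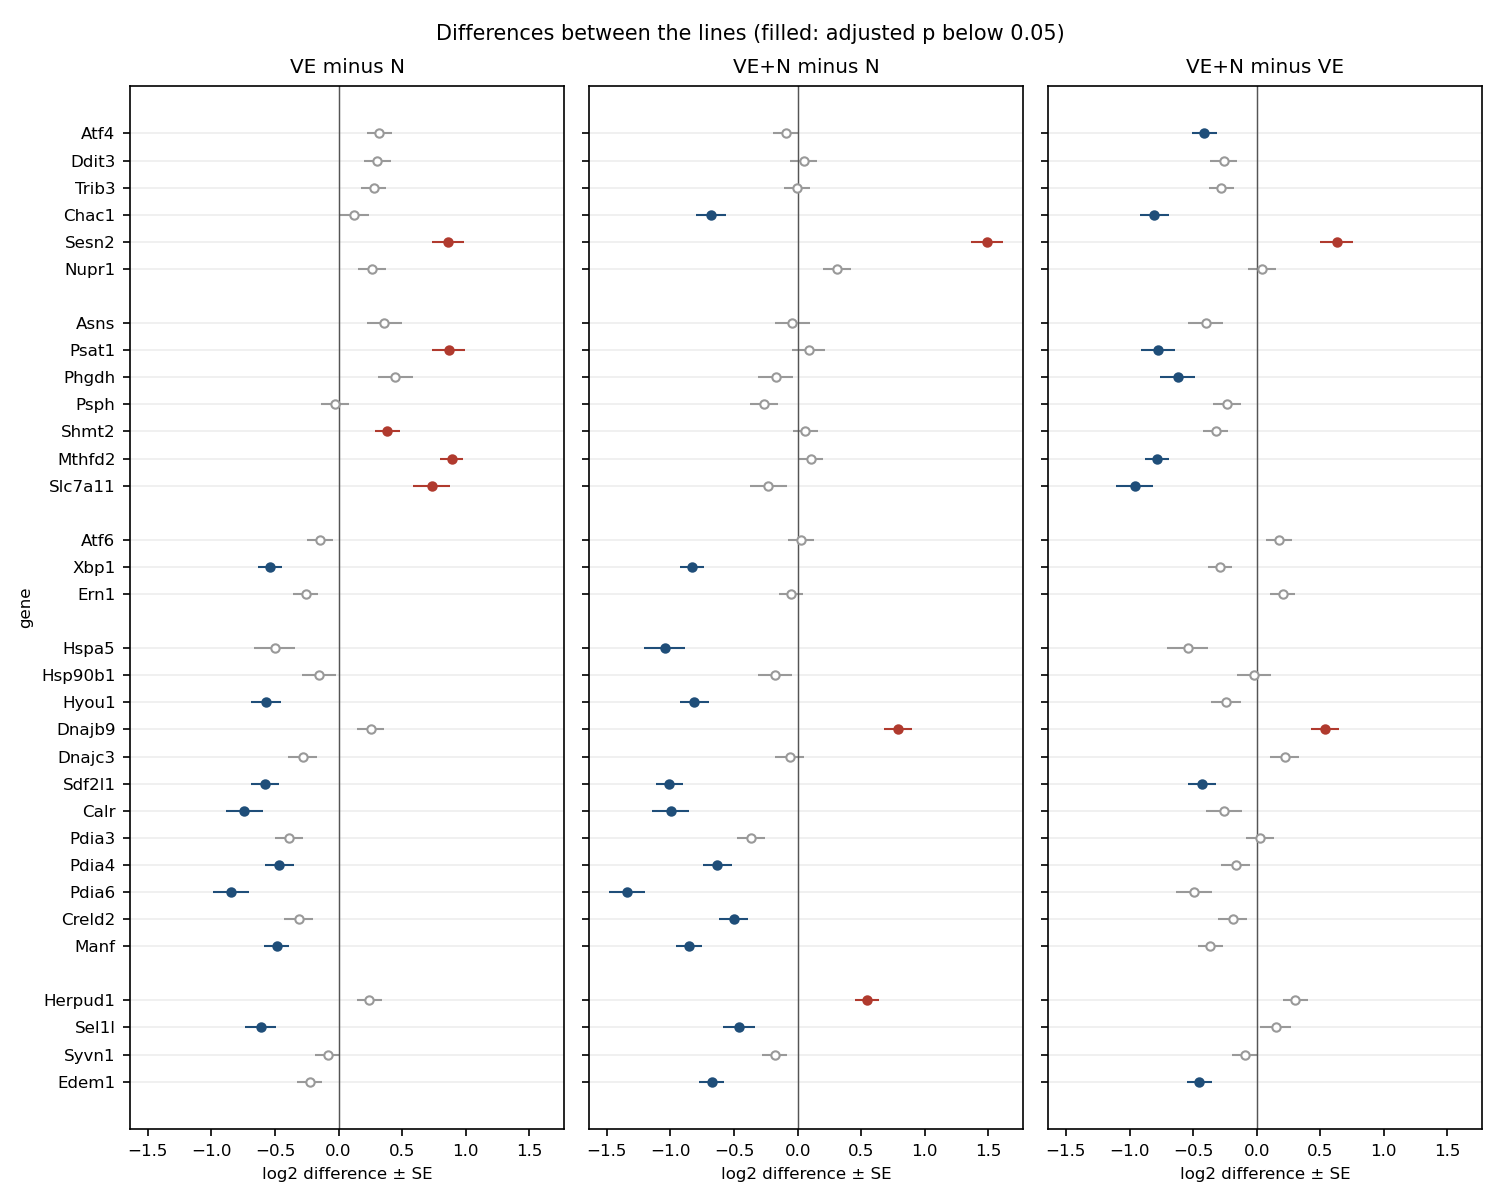
Log2 difference between lines for each of the 32 genes in the 3 comparisons, with bars of 1 SE and filled points for genes called at adjusted p below 0.05. Called genes number 13 in VE against N, 15 in VE+N against N and 10 in VE+N against VE.

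Among the 12 ER chaperones and folding enzymes 6 fell and 0 rose in VE against N (10 and 1 at unadjusted p under 0.05), with a median of −0.48. For VE+N against N the counts were 8 and 1, with a median of −0.72. From VE to VE+N 1 fell and 1 rose, with a median of −0.22. The shares called were 50%, 75% and 16.7%, against 15.4%, 19.1% and 10.1% of all genes. The widest gap was that of Pdia6, a protein disulphide isomerase. Its log2 signal was 10.84 and 10.83 in N, 9.90 and 10.07 in VE, and 9.30 and 9.69 in VE+N. The lines did not overlap, and VE lay between the others. The VE+N to N difference was −1.34 ± 0.142 (adjusted p = 0.000388), 2.53-fold lower, and VE against N gave −0.85 ± 0.142 (adjusted p = 0.00516).

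Hspa5 encodes BiP, the main Hsp70 chaperone of the ER, which binds and silences the sensors until unfolded proteins draw it away. It was measured at 11.86 and 11.89 in N, 11.25 and 11.49 in VE, and 10.60 and 11.06 in VE+N. Both N arrays lay above both VE arrays, and these above both VE+N arrays, although the VE+N arrays differed from each other more than those of the other lines. The fall in VE+N against N was −1.05 ± 0.159 (adjusted p = 0.00261). The remaining differences were −0.50 ± 0.159 for VE against N and −0.54 ± 0.159 for VE+N against VE, and neither was called (adjusted p = 0.075 and 0.0762). Sdf2l1, which keeps BiP cycling on its clients, gave 8.79 and 8.76 in N, 8.22 and 8.18 in VE, and 7.66 and 7.88 in VE+N. It fell at each step: by 0.58 from N to VE (adjusted p = 0.00886), by 0.43 from VE to VE+N (adjusted p = 0.0458) and by 1.01 from N to VE+N (adjusted p = 0.000424).

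Calr encodes calreticulin, a calcium-binding lectin that folds glycoproteins. Its signal was 11.48 and 11.51 in N, 10.72 and 10.79 in VE, and 10.28 and 10.71 in VE+N. The N arrays were above the rest, while the VE and VE+N arrays nearly met. Calr fell in VE (−0.74 ± 0.144, adjusted p = 0.0103) and in VE+N (−0.9995 ± 0.144, adjusted p = 0.00192), and VE+N against VE was not called (−0.26 ± 0.144). Hyou1, an Hsp110-like exchange factor for BiP, gave 9.80 and 9.69 in N, 9.06 and 9.28 in VE, and 8.88 and 8.98 in VE+N. Its N arrays were also apart from the others, with −0.57 ± 0.115 in VE (adjusted p = 0.0124) and −0.81 ± 0.115 in VE+N (adjusted p = 0.00177). Manf, a secreted factor that binds BiP, lay at 8.81 and 8.83 in N, 8.30 and 8.36 in VE, and 8.02 and 7.91 in VE+N. Its lines did not overlap, and it fell by 0.49 in VE (adjusted p = 0.0128) and by 0.85 in VE+N (adjusted p = 0.000628).

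Pdia4, another disulphide isomerase, was measured at 10.88 and 10.90 in N, 10.36 and 10.48 in VE, and 10.14 and 10.37 in VE+N. Both arrays of N were higher than those of the other lines, those of VE and VE+N overlapped, and the differences from N were −0.47 ± 0.115 in VE and −0.63 ± 0.115 in VE+N (adjusted p = 0.0297 and 0.00646). A second Pdia4 probe set gave 6.06 and 6.70 in N, 5.79 and 5.99 in VE, and 5.32 and 5.61 in VE+N, in the same order of lines. Creld2, a secreted disulphide isomerase relative, gave 9.11 and 9.004 in N, 8.78 and 8.70 in VE, and 8.45 and 8.66 in VE+N, and fell in VE+N against N (−0.50 ± 0.112, adjusted p = 0.016; VE against N was −0.32 ± 0.112, not called). Of the chaperones not called, Pdia3 (ERp57, the partner of calreticulin) came closest, at −0.39 ± 0.11 in VE (adjusted p = 0.0516) and −0.36 ± 0.11 in VE+N (adjusted p = 0.0554). Hsp90b1 (GRP94, the Hsp90 of the ER) gave −0.15 ± 0.134 and −0.18 ± 0.134 against N, and Dnajc3 (p58IPK, a co-chaperone of BiP that also inhibits PERK) gave −0.28 ± 0.113 and −0.06 ± 0.113. None of these differences passed the threshold.

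The chaperone that rose was Dnajb9 (ERdj4), a co-chaperone that brings BiP to the lumenal part of IRE1. Its values were 8.93 and 8.99 in N, 9.28 and 9.15 in VE, and 9.67 and 9.83 in VE+N. The VE+N arrays stood above both other lines, so the order was the opposite of that of Hspa5. Dnajb9 rose in VE+N by 0.79 ± 0.108 over N (adjusted p = 0.00146) and by 0.54 ± 0.108 over VE (adjusted p = 0.0174), while VE against N was 0.25 ± 0.108 (adjusted p = 0.178).

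The calls of VE against N in this group depended on single arrays. Without 1 array the count of chaperones that fell became 2, 2, 0 or 2 (without N replicate 1, N replicate 2, VE replicate 1 and VE replicate 2). Sdf2l1, Pdia4 and Manf lost their call without any of these 4 arrays (adjusted p from 0.0526 to 0.0695, 0.0868 to 0.172 and 0.0636 to 0.0917), Hyou1 without N replicate 1 or VE replicate 1 (0.0945 to 0.0963), Calr without N replicate 2 or either VE array (0.0558 to 0.083), and Pdia6 without VE replicate 1 (0.0556). In VE+N against N Creld2 lost its call without either N array or VE+N replicate 1 (0.057 to 0.118), and the other 8 chaperone calls were kept without any array. In VE+N against VE Sdf2l1 lost its call without any 1 of the arrays except VE+N replicate 2 (0.0862 to 0.202), and Dnajb9 without either VE array or VE+N replicate 2 (0.0642 to 0.133).

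Of the 5 marker lists for other cell types, the summed signals of 2, mural and haematopoietic, ran in the same order as most chaperones. The 10 mural markers summed to 989.7 to 1021 on the linear scale in N, 653.4 to 783.7 in VE and 204.4 to 223 in VE+N, and 3 of them fell in VE and 6 in VE+N against N. That is 30% and 60% called, against 15.4% and 19.1% of all genes. Of 12 haematopoietic markers 8 were measured, and they summed to 3110 to 3120, 987 to 1261 and 496.1 to 515, with Cd68 as the called member (−1.57 ± 0.138 in VE and −2.88 ± 0.138 in VE+N against N). In each line 1 of the 8 lay above the median gene. The highest gene mean was 11.6 in N, 9.99 in VE and 8.68 in VE+N on the log2 scale. These sums therefore rest mostly on 1 gene and do not describe the list. Ptprc, the pan-leukocyte marker, had log2 signals of 2.85, 2.54 and 2.83 and was not called. The 5 plasma cell markers, of a cell type rich in ER, went in both directions. They summed to 137.7 to 143.5 in N, 183.6 to 189.7 in VE and 191.4 to 196.1 in VE+N. Sdc1 rose by 0.92 ± 0.108 in VE and 0.91 ± 0.108 in VE+N over N, whereas Prdm1, highest in N like most chaperones, fell by 0.99 and 0.88 (adjusted p = 0.0017 and 0.00245), and Jchain, Mzb1 and Irf4 were not called. Cd68, Sdc1 and Prdm1 were named after their values were seen. None of the 8 embryonic stem cell markers was called by limma in any comparison (0 of 8, with 2 at unadjusted p under 0.05 in VE+N against N), and their sums overlapped between the lines. The part of any of these markers in the chaperone result was not tested.

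**Figure D4:**
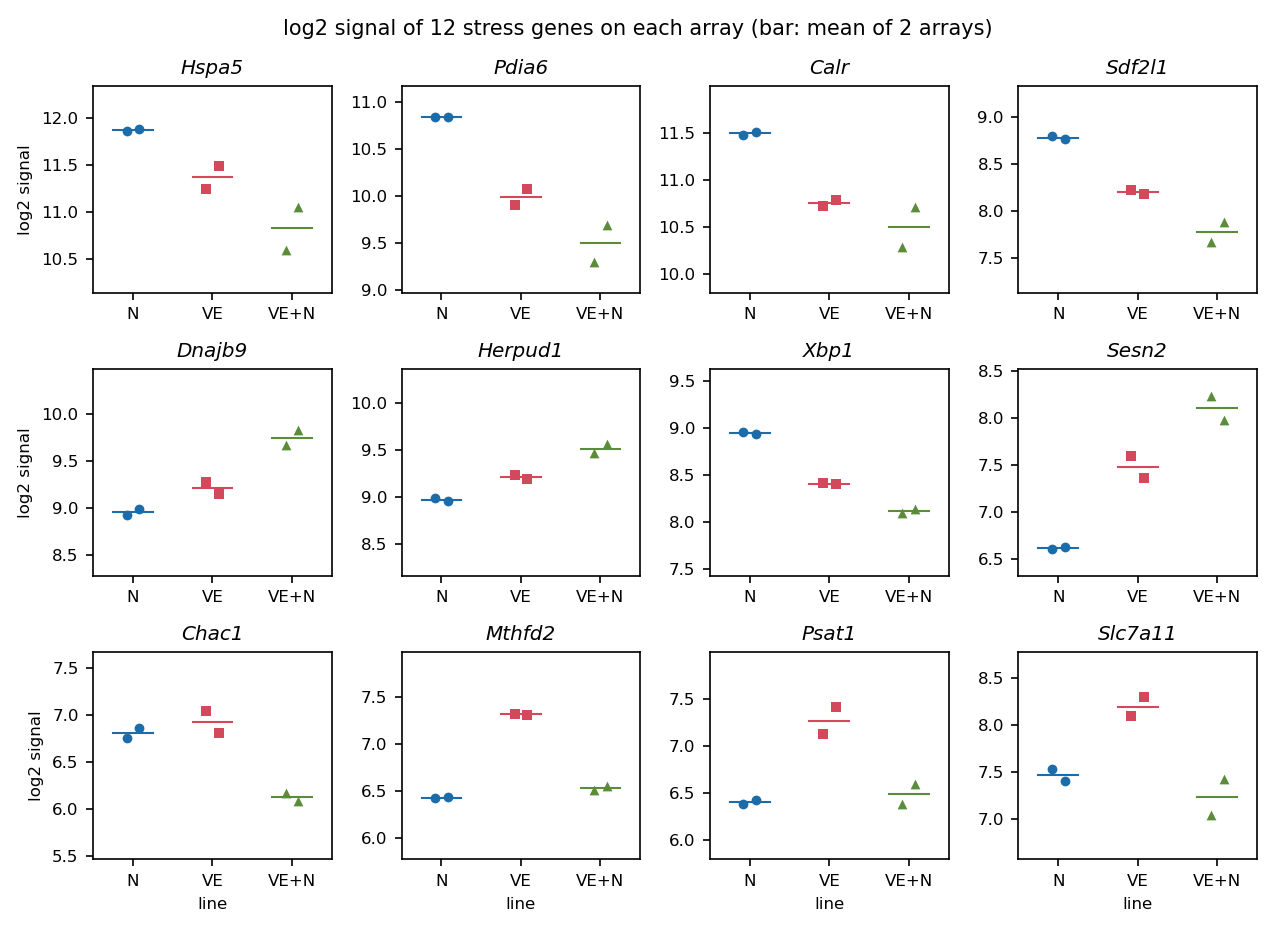
Log2 signal on each array (points, with a bar at the line mean) for 12 of the genes in lines N, VE and VE+N. Hspa5, Pdia6 and Sdf2l1 step down from N to VE+N, Mthfd2 and Psat1 peak in VE, and Sesn2 steps up from N to VE+N.

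Of the 3 sensors and factors, Xbp1 fell and the sensors themselves were not called. Xbp1 was measured at 8.95 and 8.93 in N, 8.41 and 8.40 in VE, and 8.09 and 8.13 in VE+N. Replicates were within 0.05 of each other, the lines did not overlap, and the order was that of the chaperones. It fell by 0.54 in VE (adjusted p = 0.00634) and by 0.83 in VE+N (adjusted p = 0.000548), 1.78-fold, while VE+N against VE was −0.29 ± 0.0938 (adjusted p = 0.101). Without N replicate 1 the VE call was lost (adjusted p = 0.0563), and the VE+N call was kept without any array. Ern1, which encodes IRE1α, gave 6.91 and 6.91 in N, 6.66 and 6.64 in VE, and 6.80 and 6.91 in VE+N, with differences from N of −0.26 ± 0.0977 in VE and −0.05 ± 0.0977 in VE+N (adjusted p = 0.13 and 0.785). Atf6 gave 9.31 and 9.37 in N, 9.21 and 9.19 in VE, and 9.29 and 9.45 in VE+N, with −0.14 ± 0.102 and 0.03 ± 0.102 (adjusted p = 0.445 and 0.892). For both sensors the VE arrays were the lowest, and the N and VE+N arrays overlapped.

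The 4 genes of ER-associated degradation, which sends misfolded proteins to the proteasome, moved in different directions. Edem1, a lectin that picks out misfolded glycoproteins, gave 9.42 and 9.38 in N, 9.14 and 9.21 in VE, and 8.67 and 8.77 in VE+N. The lines did not overlap, and Edem1 fell in VE+N against N by 0.68 (adjusted p = 0.00204) and against VE by 0.45 (adjusted p = 0.0247). Herpud1, a membrane protein that recruits the degradation machinery and a target of ATF4 and ATF6, gave 8.99 and 8.96 in N, 9.24 and 9.19 in VE, and 9.47 and 9.57 in VE+N. Its order was the reverse, with VE+N highest: it rose by 0.55 ± 0.0977 over N (adjusted p = 0.00595), and VE against N was 0.24 ± 0.0977 (adjusted p = 0.156). Sel1l, the scaffold of the Hrd1 ubiquitin ligase, gave 9.58 and 9.55 in N, 8.91 and 9.003 in VE, and 8.95 and 9.26 in VE+N, lower than N in VE (−0.61 ± 0.123, adjusted p = 0.0122) and in VE+N (−0.46 ± 0.123, adjusted p = 0.0338). Syvn1, the Hrd1 ligase itself, was not called, with −0.09 ± 0.0991 and −0.18 ± 0.0991 against N. The calls of Sel1l were lost without any array of the lines compared except VE+N replicate 2, and its VE+N call also without either VE array (adjusted p from 0.0604 to 0.156). The call of Edem1 in VE+N against VE was lost without any array (0.0504 to 0.153), and that of Herpud1 without N replicate 2 (0.0516).

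The 6 genes of the PERK and ATF4 arm did not move as 1 block in the comparisons with VE+N. In VE against N all 6 had differences above 0, with a median of 0.29, and 1 rose and 0 fell (5 and 0 at unadjusted p under 0.05). In VE+N against N 1 rose and 1 fell, and in VE+N against VE 1 rose and 2 fell, with a median of −0.27. The shares called were 16.7%, 33.3% and 50%, against 15.4%, 19.1% and 10.1% of all genes, so the first was near the background. Atf4, the transcription factor of the arm, gave 6.85 and 6.78 in N, 7.16 and 7.11 in VE, and 6.68 and 6.76 in VE+N. Both VE arrays were above all others. The difference was 0.32 ± 0.0979 in VE against N (adjusted p = 0.0676, not called), and Atf4 fell in VE+N against VE by 0.41 (adjusted p = 0.0346), a call that was lost without any 1 of the 6 arrays (0.0686 to 0.176).

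Sesn2, which encodes sestrin 2, a leucine-binding inhibitor of mTORC1 that also answers to p53 and NRF2, had the largest change of the 32 genes. It was measured at 6.61 and 6.63 in N, 7.59 and 7.37 in VE, and 8.23 and 7.98 in VE+N. The lines did not overlap, and it stepped up from N to VE to VE+N. The rise was 0.86 ± 0.127 in VE (adjusted p = 0.00275) and 1.49 ± 0.127 in VE+N (adjusted p = 0.000119), 2.81-fold, and both were called without any array. The step from VE to VE+N was 0.63 ± 0.127 (adjusted p = 0.0175), and its call was lost without VE replicate 2 or VE+N replicate 1 (0.0668 to 0.138). Chac1, which breaks down glutathione and is a target of ATF4 and CHOP, went the other way in VE+N. It gave 6.75 and 6.86 in N, 7.05 and 6.82 in VE, and 6.17 and 6.09 in VE+N, so the VE+N arrays lay below all others while N and VE overlapped. It fell by 0.68 against N (adjusted p = 0.00454) and by 0.80 against VE (adjusted p = 0.00367), and both calls were kept without any array.

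Ddit3 (CHOP, the pro-apoptotic factor of the arm) and Trib3 (a pseudokinase that feeds back on ATF4) were not called. Both were nominally higher in VE, with 0.31 ± 0.107 for Ddit3 (adjusted p = 0.104) and 0.27 ± 0.0991 for Trib3 (adjusted p = 0.113), and their VE+N to N differences were 0.05 ± 0.107 and −0.005 ± 0.0991. Nupr1, a small stress-induced chromatin protein, gave 0.26 ± 0.11 in VE and 0.31 ± 0.11 in VE+N against N (adjusted p = 0.167 and 0.0972).

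Serine, one-carbon and amino acid supply was the block that set VE apart. Of its 7 genes 4 rose and 0 fell in VE against N (6 and 0 at unadjusted p under 0.05; median 0.45), and 4 fell and 0 rose in VE+N against VE (6 and 0 at unadjusted p; median −0.62). Between VE+N and N 0 of 7 were called by limma (1 at unadjusted p under 0.05; 0 by the methods' analysis of variance or with a trended prior), with a median of −0.04. The share called was 57.1% in both VE against N and VE+N against VE, beside 15.4% and 10.1% of all genes. Between VE+N and N 19.1% of all genes were called. Mthfd2, the mitochondrial one-carbon dehydrogenase, gave 6.42 and 6.43 in N, 7.32 and 7.31 in VE, and 6.51 and 6.55 in VE+N. Replicates lay within 0.05 of each other, and both VE arrays were clear of the rest. It rose by 0.89 ± 0.0939 in VE over N, 1.85-fold (adjusted p = 0.000503), and fell by 0.79 in VE+N against VE (adjusted p = 0.00155). Both calls were kept under all 14 alternatives run without a fold limit, which held for no other of the 32 genes in these comparisons.

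Psat1, the aminotransferase of serine synthesis, gave 6.38 and 6.43 in N, 7.13 and 7.41 in VE, and 6.39 and 6.60 in VE+N. The pattern was that of Mthfd2, with N and VE+N close to each other below VE. It rose by 0.86 ± 0.13 (adjusted p = 0.00305) in VE over N and fell by 0.78 in VE+N against VE (adjusted p = 0.00762). Slc7a11, the cystine importer of system xc-, gave 7.53 and 7.40 in N, 8.09 and 8.30 in VE, and 7.04 and 7.43 in VE+N. The VE arrays were again apart, and VE+N replicate 1 was the lowest. It rose by 0.73 ± 0.147 (adjusted p = 0.0122) and fell by 0.96 (adjusted p = 0.00495) in these comparisons. Phgdh, which commits a glycolytic intermediate to serine, gave 6.84 and 6.84 in N, 7.11 and 7.46 in VE, and 6.76 and 6.57 in VE+N. Its difference in VE against N was 0.45 ± 0.137 (adjusted p = 0.0685, not called), and it fell by 0.62 in VE+N against VE (adjusted p = 0.0263). A Phgdh probe set that is shared with the predicted gene Gm6756, and so was not used, gave 6.85 and 6.76 in N, 7.31 and 7.65 in VE, and 7.07 and 6.92 in VE+N, with VE again highest.

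Shmt2, the mitochondrial serine hydroxymethyltransferase that feeds Mthfd2, gave 7.66 and 7.68 in N, 8.01 and 8.09 in VE, and 7.70 and 7.75 in VE+N. It rose in VE over N by 0.38 ± 0.0962 (adjusted p = 0.0318), and VE+N against VE was −0.32 ± 0.0962 (adjusted p = 0.079). Asns (asparagine synthetase, a textbook ATF4 target) was not called, at 0.36 ± 0.137 in VE over N (adjusted p = 0.132) and −0.40 ± 0.137 in VE+N against VE (adjusted p = 0.122). Psph, which makes the last step to serine, was not called and did not share the peak in VE: its differences were −0.03 ± 0.11 in VE and −0.26 ± 0.11 in VE+N against N. In VE against N the call of Shmt2 was lost without any N or VE array (0.1 to 0.179) and that of Slc7a11 without N replicate 2 or VE replicate 2 (0.0752 to 0.106). Among the falls from VE to VE+N, leaving out VE replicate 2 ended the calls of Psat1 (0.0678), Slc7a11 (0.0594) and Phgdh, and Phgdh was also lost without VE+N replicate 2 (0.136 to 0.161).

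Fibroblast markers were highest in the same line as these genes. The 8 markers summed to 303 to 311.5 on the linear scale in N, 2336 to 2470 in VE and 217.2 to 247.4 in VE+N, and 6 rose and 1 fell in VE over N while 7 fell in VE+N against VE. The share called was 87.5% in both, beside 15.4% and 10.1% of all genes. Their part in the pattern of the amino acid genes was not tested.

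Read by promoter element, 4 of the 7 genes with an ERSE fell and 0 rose in VE+N against N (median −0.50), and the genes with an ERSE that were not called there were Dnajc3, Hsp90b1 and Syvn1. Outside the 32 genes 30 genes held the element, of which 14 were measured, and 2 rose and 2 fell (median −0.06). Of all genes 10.2% rose and 8.91% fell in that comparison. Of the 7 genes, 0 rose and 2 fell in VE against N (median −0.315), and 0 were called by limma in VE+N against VE. Among the 14 outside, 2 rose and 1 fell, and 0 rose and 1 fell, in these comparisons. Herpud1, the gene with ERSE-II, rose in VE+N over N, where 0 rose and 3 fell of 8 other measured genes with it. Of the 6 genes with a CARE, 1 rose in VE over N (median 0.27) and 2 fell in VE+N against VE (median −0.34). Among 559 other measured genes with that element 38 rose and 27 fell, and 25 rose and 21 fell, in the same comparisons. Between VE+N and N 1 of the 6 rose and 1 fell (median −0.02), and of the 559 others 54 rose and 36 fell. Of all genes 8.46% rose and 6.99% fell in VE over N, and 4.29% and 5.84% in VE+N against VE. The counts by element were not tested against these shares. Psat1 and Mthfd2, with the clearest peak in VE, held none of the CARE letters searched in this window. Sdf2l1, which fell in all comparisons, held no match to the ERSE letters in it.

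Related genes were read from lists around each response. Among 23 other ER chaperones, oxidoreductases and lectins 1 rose and 4 fell in VE against N (median −0.15), 0 rose and 8 fell in VE+N against N (0 and 12 at unadjusted p under 0.05; median −0.22), and 1 rose and 3 fell in VE+N against VE. Called were 21.7%, 34.8% and 17.4%, against 15.4%, 19.1% and 10.1% of all genes. Ero1a, the oxidase that recharges disulphide isomerases, was the 1 gene that rose in VE over N (0.68 ± 0.123, adjusted p = 0.00722), and it fell in VE+N by 0.81 against N (adjusted p = 0.00256) and by 1.49 against VE (adjusted p = 0.000261). Prdx4, an ER peroxidase, fell by 0.78 and 0.76 in the same comparisons, and Sil1, an exchange factor for BiP, fell by 0.66 in VE+N against N (adjusted p = 0.00646). Uggt2, a glycoprotein folding sensor, was lowest in VE: it fell by 0.93 in VE against N (adjusted p = 0.00581), was higher by 1.16 ± 0.159 in VE+N than in VE (adjusted p = 0.003), and was not called between VE+N and N (0.23 ± 0.159). Without VE replicate 1 the calls of Ero1a and Uggt2 in VE against N were lost (adjusted p = 0.06 and 0.0604). In the 16 genes of ER translocation and signal peptide removal 3 fell and 0 rose in VE (5 and 1 at unadjusted p), and 3 fell and 1 rose in VE+N against N. The shares called, 18.8% and 25%, were close to the 15.4% and 19.1% of all genes. Sec11c, a signal peptidase subunit, fell by 1.07 in VE+N (adjusted p = 0.000196), and Ssr2, of the translocon-associated complex, by 0.62 (adjusted p = 0.00268).

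Of the 19 other degradation genes 0 rose and 2 fell in VE against N (10.5%, against 15.4% of all genes; 3 and 6 at unadjusted p under 0.05; median −0.07). The counts were 4 and 2 in VE+N against N (median −0.03) and 3 and 1 in VE+N against VE (median 0.07). Called in these were 31.6% and 21.1%, against 19.1% and 10.1% of all genes. No test of a difference from the chaperones was made. In VE+N against N the called genes included Os9, a lectin of the Hrd1 complex (0.67 ± 0.094, adjusted p = 0.0017), Ngly1, which strips glycans (0.76 ± 0.119, adjusted p = 0.00301), and the ligase Rnf139 (0.67 ± 0.0984), while Ube2j2, a ubiquitin-conjugating enzyme, fell by 0.68. Of 14 other ER stress regulators, 3 rose and 1 fell in VE, and 2 rose and 3 fell in VE+N against N. That is 28.6% and 35.7% called, against 15.4% and 19.1% of all genes. Creb3l1 (OASIS), a membrane-bound factor related to ATF6, was the most changed: it was 1.31 ± 0.121 in VE over N (adjusted p = 0.000255) and fell by 1.96 in VE+N against VE (adjusted p = 6.9e-05). Its means of 5.25 in N and 4.60 in VE+N were below the median gene. Nfyb, a subunit of NF-Y, rose by 1.14 ± 0.137 in VE+N over N (adjusted p = 0.000749). The subunits did not move together: Nfya fell by 0.43 in both VE and VE+N against N (adjusted p = 0.0203 and 0.0165). Nfyc was not called (0.14 ± 0.0984 in both). Mbtps1, the protease that cuts ATF6, rose by 0.66 ± 0.0978 in VE+N over N (adjusted p = 0.00224).

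Upstream of Atf4, 11 genes for the eIF2α kinases, phosphatases and the exchange factor eIF2B gave 2 that fell in VE and 3 in VE+N against N, with 0 that rose. At unadjusted p under 0.05, 5 and 7 were lower and 0 higher. Called were 18.2% and 27.3% of the list, against 15.4% and 19.1% of all genes, so the first was near the background. Eif2b2, a subunit of eIF2B, fell by 1.01 in VE (adjusted p = 0.000354) and by 0.86 in VE+N (adjusted p = 0.000634). Of 15 other factors and targets of ATF4 and CHOP, 2 rose and 1 fell in VE, 5 rose and 2 fell in VE+N against N, and 1 rose and 4 fell in VE+N against VE. Called were 20%, 46.7% and 33.3%, against 15.4%, 19.1% and 10.1% of all genes, so the first was near the background. Atf3, a stress-induced repressor downstream of ATF4, fell by 1.03 in VE+N against N (adjusted p = 0.000433). Ddit4 (REDD1), an inhibitor of mTORC1 like Sesn2, rose by 0.67 ± 0.102 in the same comparison (adjusted p = 0.00268), and Vldlr, a lipoprotein receptor, rose by 1.75 ± 0.132 in VE and 2.14 ± 0.132 in VE+N over N.

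Among 15 amino acid transporters 5 rose and 2 fell in VE over N (median 0.17), 2 rose and 3 fell in VE+N over N, and 0 rose and 6 fell in VE+N against VE (1 and 8 at unadjusted p; median −0.29). Called were 46.7%, 33.3% and 40% of the list, against 15.4%, 19.1% and 10.1% of all genes. Slc7a5 (LAT1, an importer of large neutral amino acids) rose by 1.27 ± 0.0999 in VE over N (adjusted p = 0.000111), fell by 1.23 in VE+N against VE (adjusted p = 0.00024), and was 0.03 ± 0.0999 in VE+N against N, not called, so its values followed those of Mthfd2. The cationic amino acid importer Slc7a2 did likewise, at 1.97 ± 0.152 (adjusted p = 1e-04) and −1.96 (adjusted p = 0.000188). The serine and alanine carrier Slc1a4 rose in both VE (1.24 ± 0.11) and VE+N (1.59 ± 0.11) over N, and the glutamine carrier Slc38a1 fell in both (−3.40 ± 0.201 and −3.34 ± 0.201). Some of these means lay below the median gene: Slc7a2 in N and VE+N (4.24 in both), Slc1a4 in N (5.20), and Slc38a1 in VE (3.60) and VE+N (3.65). Slc38a2 and Slc1a5, other neutral amino acid carriers, fell by 0.90 and 0.80 in VE+N against N (adjusted p = 0.000968 and 0.00129).

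Of 12 other genes of amino acid synthesis and one-carbon metabolism, 4 rose and 1 fell in VE, 2 rose and 4 fell in VE+N against N, and 1 rose and 3 fell in VE+N against VE. That is 41.7%, 50% and 33.3% called, against 15.4%, 19.1% and 10.1% of all genes. Glul, glutamine synthetase, rose by 1.97 ± 0.108 in VE and by 3.25 ± 0.108 in VE+N over N (adjusted p = 1.87e-05 and 9.21e-07), stepping up like Sesn2. Tyms, which uses one-carbon units to make thymidylate, fell by 0.93 in VE+N against VE (adjusted p = 0.0016), and Mthfd1l, the mitochondrial formate enzyme, fell by 0.73 in VE+N against N (adjusted p = 0.00224). The 18 cytosolic tRNA synthetases, many of them ATF4 targets, gave 2 that rose and 1 that fell in VE, 1 and 4 in VE+N against N, and 0 and 2 in VE+N against VE (0 and 7 at unadjusted p). The shares called were 16.7%, 27.8% and 11.1%, against 15.4%, 19.1% and 10.1% of all genes, so the first and last were near the background. Mars1 rose by 0.68 ± 0.096 in VE and 0.69 ± 0.096 in VE+N over N, while Cars and Nars fell by 0.80 and 0.70 in VE+N against N (adjusted p = 0.000897 and 0.00214).

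**Figure D5:**
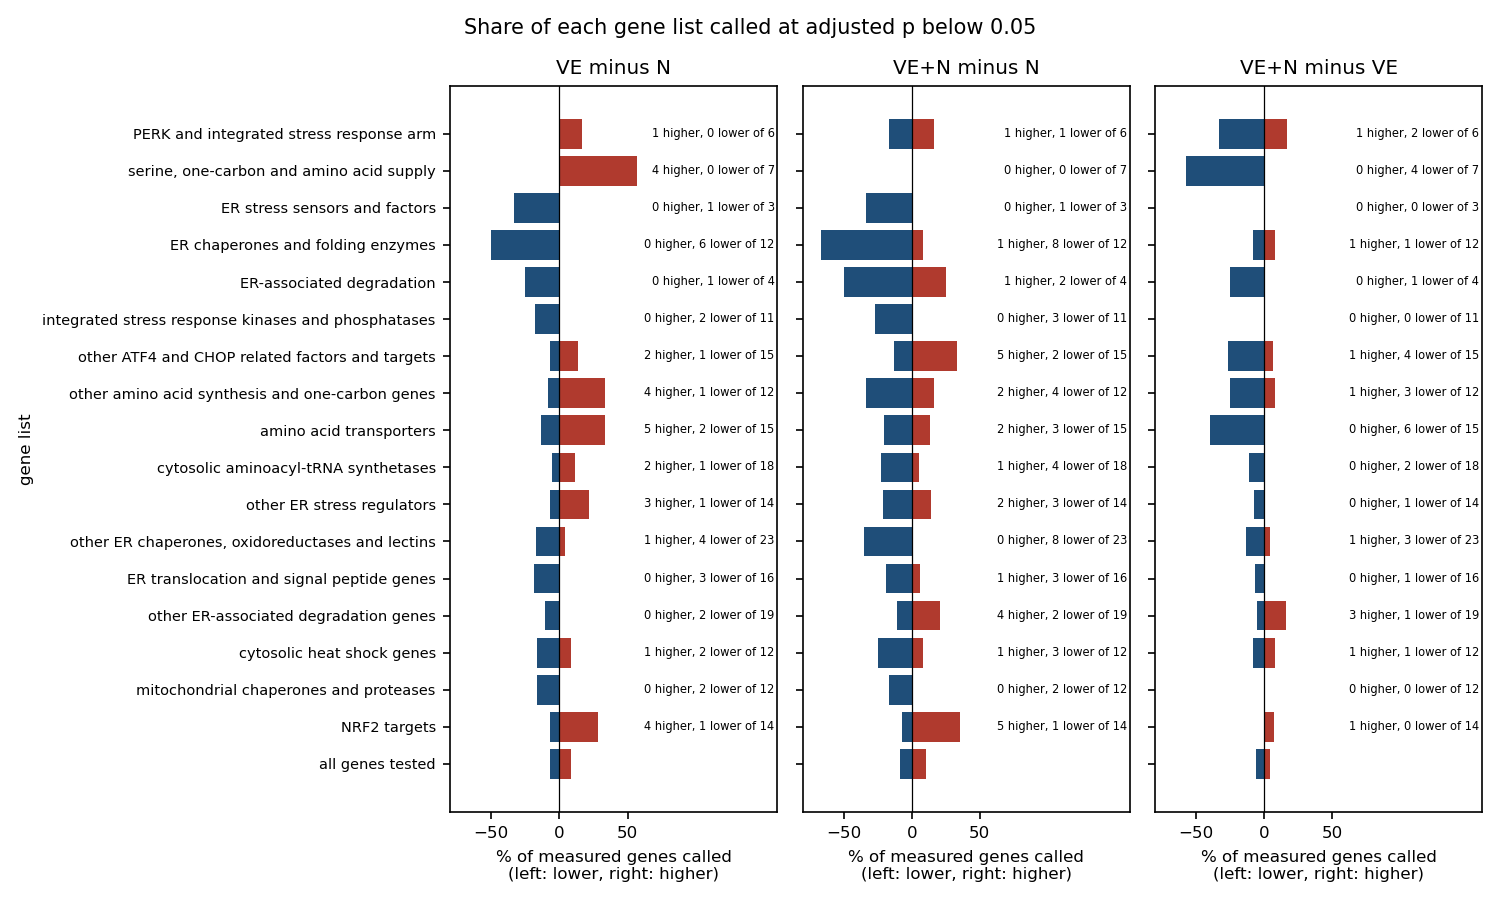
Percent of the measured genes of each list that rose (to the right) or fell (to the left) in the 3 comparisons, for the role groups of the 32 genes and the lists around them, beside all genes tested. The chaperone group reaches farthest to the left in VE+N against N, where 8 of 12 fell, and the serine and amino acid group points right in VE against N (4 of 7) and left in VE+N against VE (4 of 7).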

How the data were processed

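Affymetrix Mouse Gene 1.0 ST arrays measured RNA of 6 samples, 2 for each of 3 lines, grouped by the line in their titles. The authors' deposited log2 values come from RMA (background correction, quantile normalization and probe set summary) in Partek 6.3, per the submitters' processing notes. No source used here states the log2 scale, which the values' range shows. Dim genes were kept. Probe positions and the annotation build are not given in the sources used here.

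Of 35556 deposited probe sets 21789 carried 1 symbol, 1621 several and 12146 none. Keeping the probe set with the highest mean left 19936 genes. Lines were compared with limma 3.58.1 in R 4.3.3 on all 6 arrays (3 residual and 4.89 prior degrees of freedom), with Benjamini-Hochberg adjustment over all genes. The analysis was tested on simulated data with 200 shifted genes. Of log2 shifts of 1 it recovered 63.6% to 67.6%, and of shifts of 0.5 1.6% to 2%, with 2.88% of calls false. Fewer genes were shifted there than were called in the data (3079 in VE against N), so recovery may differ. Per the series' design text, the study used analysis of variance with p of 0.05 and a fold over 2. Precision is limited by the number of arrays.

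The 32 genes, the lists and the elements searched were chosen with earlier results of these data known. Values on each array are given for members called at least once and for Atf4, Xbp1, Atf6 and Ern1. From other lists up to 4 called genes with the largest difference were eligible, and Cdh2 and Cdh5 check the labels. Alternatives were a replicate block, 4 arrays only, a trended robust prior, median centring, quantile normalization, removal of the dimmest 25% of genes, the mean of probe sets, the methods' analysis of variance and each array left out.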

Additional observations from a re-analysis of the deposited data

How the results depend on the processing

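No member that was called changed direction under an alternative. Of the called members 1 of 13 in VE against N (Mthfd2), 7 of 15 in VE+N against N (Sesn2, Xbp1, Dnajb9, Sdf2l1, Pdia6, Manf and Edem1) and 1 of 10 in VE+N against VE (Mthfd2) were called under all 14 alternatives without a fold limit. With a trended robust prior 21 members were called in VE against N and 17 in VE+N against VE. The methods' analysis of variance with Benjamini-Hochberg adjustment called 4, 8 and 2 members in VE against N, VE+N against N and VE+N against VE, and at its own limits (p under 0.05 and over 2-fold) 0, 4 and 0, with 20, 19 and 16 members at unadjusted p under 0.05 whatever the fold. Leaving out 1 array gave 6 to 15, 12 to 16 and 2 to 8 members called, and medians of −0.153 to −0.0729, −0.221 to −0.118 and −0.305 to −0.21. Median centring moved the median of the members to −0.223 in VE against N and −0.17 in VE+N against VE, and quantile normalization to −0.0791 and −0.303. The other counts stayed within 1.5 times the main count, and the other medians within the replicate spread. The cause of these shifts was not tested, except that an array left out leaves fewer samples. A fit with the replicate number as a block called 15, 16 and 11 members. The deviations of equally numbered arrays correlated at −0.00504 (N and VE), 0.123 (N and VE+N) and 0.0689 (VE and VE+N). Whether equally numbered samples share more than a number is not given, and these values cannot decide it. With 2 arrays a line, small differences may not pass the threshold.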

Other observations

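Chaperones outside the ER mostly had lower means than in N, though most were not called. Of 12 cytosolic heat shock genes 1 rose and 2 fell in VE against N and 1 rose and 3 fell in VE+N against N, with medians of −0.21 and −0.24. That is 25% and 33.3% called, against 15.4% and 19.1% of all genes. Differences were below 0 for 10 and 11 of the 12, against 10773 and 10149 of all 19936 genes. At unadjusted p under 0.05, 5 of the 12 were lower and 1 higher in each comparison. Cryab, the small heat shock protein αB-crystallin, rose by 2.09 ± 0.111 in VE and by 3.09 ± 0.111 in VE+N over N (limma, adjusted p = 1.58e-05 and 1.3e-06). Hspb1, another small heat shock protein, fell by 0.85 and 1.41 (adjusted p = 0.00513 and 0.000298), to a mean below the median gene in VE+N (5.21). Both calls were kept without any array. Among 12 mitochondrial chaperones and proteases 9 and 10 had differences below 0 against N in VE and VE+N. At unadjusted p under 0.05, 2 and 5 were lower and 0 higher. By limma's adjusted p 2 fell and 0 rose in both. The share called was 16.7% in both, near the 15.4% and 19.1% of all genes. Among those that fell was Afg3l2, an inner membrane protease, with differences of −0.59 ± 0.1 and −0.72 ± 0.1.

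Of 14 targets of NRF2, the antioxidant factor that also raises Slc7a11 and Sesn2, 4 rose and 1 fell in VE and 5 rose and 1 fell in VE+N over N, with medians of 0.13 and 0.24. Called were 35.7% and 42.9% of the list, against 15.4% and 19.1% of all genes. Gclm, of glutathione synthesis, rose by 0.66 ± 0.0941 in VE and 0.71 ± 0.0941 in VE+N (adjusted p = 0.00237 and 0.00128). Nqo1, a quinone reductase, fell by 0.79 and 0.87 (adjusted p = 0.00111 and 0.000512). Its mean log2 signals of 4.93 in N, 4.14 in VE and 4.06 in VE+N were all below the median gene. Nfe2l2, which encodes NRF2, rose by 0.97 ± 0.116 in VE+N over N (adjusted p = 0.000749).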
